A study of Mus musculus with 18 samples.

Results

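The urothelium, the stratified epithelium that lines the bladder, is built under the control of a small set of transcription factors. Trp63 maintains basal cells, the layer on the basement membrane. Foxa1 and Gata3 bind regulatory DNA in differentiating urothelial cells, and Pparg, a nuclear receptor that pairs with the retinoid X receptor, works with them. Grhl3, Klf4 and Klf5 act in barrier formation and maturation. Tbx3 is a T-box repressor of transcription that acts in development, and Sox9 is known in mice to appear in urothelium after injury. These 9 genes were taken by gene name from a deposited count table of 46333 named genes. The rule itself names no measured value, but the set was proposed with earlier results of these data known. Each of the 9 passed the filter on low counts, which kept 19323 genes, and each had at least 18 counts in every library.

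The 18 libraries come from whole urinary bladders of female wild type BALB/c mice, 8 weeks old, with 3 mice in each of 6 groups. The groups were vitamin A-enriched diet with cyclophosphamide and normal diet with cyclophosphamide, each sampled 1 and 3 days after injection, then vitamin A-enriched diet with saline and normal diet with saline, each sampled 1 day after injection. Cyclophosphamide, a drug whose metabolites injure the bladder lining from the urine, was given intraperitoneally at 150 mg/kg. The enriched diet began 1 week earlier. The labels describe it as 566081 IU of retinyl acetate per kg, and the series description as a 36-fold higher content in the form of retinyl palmitate. Saline bladders were collected on day 1 only, so a comparison of day 3 with saline also spans the day of collection. Animals were caged in threes and cages are not listed per mouse, so cage and group cannot be told apart. The study asked how extra vitamin A bears on regrowth of the urothelium after this injury.

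Totals ran between 19554132 and 34598952 counts per library. Bladder identity was visible in each group. The uroplakin gene Upk1a averaged between 998.6 and 2332 CPM (the count of a gene scaled to a common library total of named counts, as counts per 1e6), the basal keratin gene Krt5 between 594.7 and 2512 CPM and the smooth muscle gene Myh11 between 3009 and 7125 CPM, and of a list of 9 genes of the female genital tract and other epithelia Pax8 and Pax2 averaged at most 0.129 and 0.389 CPM. Other genes of that list were present, with Wfdc2, named after its values were seen, at 272 to 1037 CPM, and the list summed to between 260.5 and 1415 CPM per library. The library of replicate 2 of the vitamin A diet on day 3 stood apart. Genes shorter than 1 kb took 14.2% of its counts, against 7.13% to 10.8% in the other 17 libraries, and it held the lowest CPM of all 18 libraries for Foxa1, Grhl3, Klf5, Trp63 and Tbx3. The day 3 values on the vitamin A diet and the diet values on day 3 include it. The log2 changes of the members named there are also given without it, and the levels of gene lists are not. RNA of a whole organ cannot tell fewer cells of a type from less RNA per cell. Counts per gene do not separate isoforms such as the long and short forms of p63.

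Promoter windows from RefSeq (build GRCm38.p6, 250 bases before to 50 bases after an annotated start) were available for 5 of the 9 genes. The windows of Klf4 and Gata3 are printed because these were the only members whose changes passed the test. Capitals mark each GC box (GGGCGG) and each CACCC box (CACCC) on either strand. Both are letters that zinc-finger factors of the Sp and Krüppel-like families are known to bind. The Klf4 window lies at chr4:55532426-55532725 and the Gata3 window at chr2:9878551-9878850. Each is on the minus strand and is written 5′ to 3′ along its gene.
Klf4: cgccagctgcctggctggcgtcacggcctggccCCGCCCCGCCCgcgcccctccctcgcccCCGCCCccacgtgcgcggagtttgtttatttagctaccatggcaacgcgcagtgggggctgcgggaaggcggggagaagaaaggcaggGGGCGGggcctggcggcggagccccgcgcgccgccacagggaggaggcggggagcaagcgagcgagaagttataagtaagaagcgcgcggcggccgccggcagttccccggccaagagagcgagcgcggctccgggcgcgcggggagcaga
Gata3: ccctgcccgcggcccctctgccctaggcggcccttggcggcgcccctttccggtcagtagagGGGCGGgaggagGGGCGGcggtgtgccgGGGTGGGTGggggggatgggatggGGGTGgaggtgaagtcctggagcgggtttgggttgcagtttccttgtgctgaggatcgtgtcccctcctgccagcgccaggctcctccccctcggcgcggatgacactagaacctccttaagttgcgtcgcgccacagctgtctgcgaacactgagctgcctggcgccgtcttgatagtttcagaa
The Klf4 window held 4 GC boxes and no CACCC box, and 74.3% of its bases were G or C, against a median of 52.7% over all 32851 windows. The Gata3 window held 2 GC boxes and 3 CACCC boxes at 67.3% G or C. No match of one motif overlapped a match of the other, although neighbouring matches of 1 motif share a base at a site in each window. A GC box was present in 35.66% of all windows and a CACCC box in 57.52%. The nuclear receptor half-site AGGTCA, searched on both strands, was found in 2 of the 3 Pparg windows and in 16.26% of all windows, and in no window of Klf4, Gata3, Grhl3 or Foxa1. These are matches of letters and not sites of binding.

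In bladders of saline mice on the normal diet the 9 genes differed widely in level per length (FPKM, which also divides by gene length). Grhl3 was the highest at 84.4 ± 2.2 FPKM and Gata3 followed at 75.9 ± 1.9 FPKM (SD, n = 3). Tbx3 had 45.7 ± 2.6, Foxa1 44.9 ± 3.3 and Klf5 43.9 ± 4.1 FPKM, and the mice of these 3 neighbours overlapped. Trp63 at 30.2 ± 0.57 FPKM and Pparg at 29.6 ± 3.0 FPKM overlapped as well. Klf4 had 6.60 ± 0.45 FPKM. Sox9 was the lowest at 0.372 ± 0.15 FPKM with as few as 18 counts in a library. The coefficient of variation within groups was 39.8% for Sox9, 28.5% for Klf5 and 13.1% for Pparg.

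**Figure D1:**
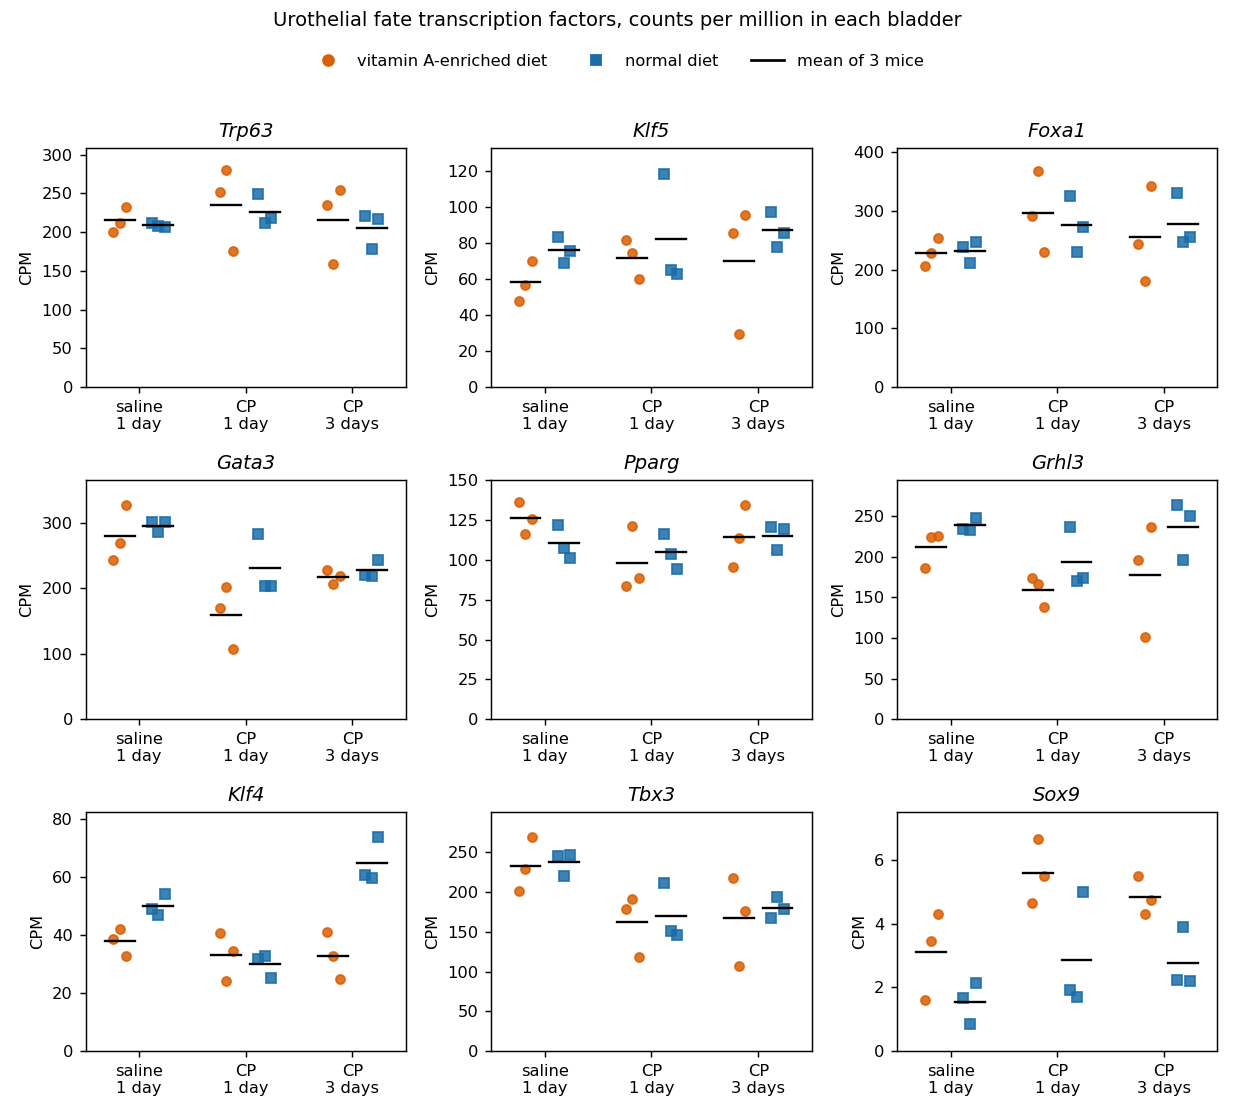
Level of the 9 genes in each bladder in CPM after saline, 1 day after cyclophosphamide (CP) and 3 days after it; circles are mice on the vitamin A-enriched diet, squares mice on the normal diet, and bars the mean of 3 mice. Gata3 and Tbx3 sat lower on day 1 than after saline on both diets, Klf4 sat lower on day 1 than after saline without overlap on the normal diet and with overlap on the vitamin A diet, and Sox9 stayed under 7 CPM throughout.

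At 1 day after cyclophosphamide edgeR called 1 fate factor on each diet (adjusted p under 0.05), Gata3 on the vitamin A diet and Klf4 on the normal diet. DESeq2 called 2 on the vitamin A diet, Gata3 and Tbx3, and 1 on the normal diet. On the vitamin A diet 1 of the 9 genes, Gata3, fell and none rose, against 19.3% of all tested genes past the threshold in either direction and 9.05% downward. Of the 9 genes 1, Klf4, fell on the normal diet and none rose, against 11.8% in either direction and 4.49% downward. The median log2 change over the 9 genes was -0.23 on the vitamin A diet and -0.07 on the normal diet, and over all tested genes it was -0.01 and -7e-04. The 1 of 9 called on each diet was no higher than the share of all genes in either direction. It was above the downward share on each diet, but 1 gene is the smallest call possible. The share of all tested genes whose groups do not overlap in CPM was not computed for any comparison. Non-overlap of single genes in CPM, here and between diets, is therefore a description only.

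Gata3 (gene ID 14462; GRCm39, chromosome 2, 9861889 to 9892762, minus strand) encodes a zinc-finger factor of differentiated urothelium. It had 169.6, 203.0 and 106.8 CPM in the 3 vitamin A-diet mice 1 day after cyclophosphamide, against 243.6, 269.0 and 327.4 CPM in vitamin A-diet saline mice. The groups did not overlap, and the log2 change was -0.83 (SE 0.18, adjusted p = 0.00344). Normal-diet mice had 283.4, 204.2 and 204.5 CPM after cyclophosphamide, against 301.0, 286.2 and 301.1 CPM after saline. These groups did not overlap either, but the log2 change of -0.36 (SE 0.18) had an adjusted p of 0.225. The difference between the diets in this response was -0.47 on the log2 scale, with a 95% interval from -1.02 to 0.07 and an adjusted p of 0.709. Gata3 is also a gene of T cells and innate lymphocytes, and of 14 tested markers of those cells 3 fell and 1 rose on day 1 on the vitamin A diet. Of all tested genes 9.05% fell and 10.2% rose there. The median log2 change of these 14 markers was -1.87, with 12 below 0 and 2 above. The full list of 15 genes summed to 75.4 to 141.9 CPM in vitamin A-diet mice on day 1 and 120.7 to 168.3 CPM in vitamin A-diet saline mice. Thy1 alone averaged 69.0 CPM on day 1 and 64.4 CPM after saline, and Rora 26.1 and 48.3 CPM. These 2 genes held most of the sum, so it says little of the other markers. The defining T cell genes Cd3d and Cd3e averaged 0.0647 and 0.348 CPM on day 1, against 0.826 and 1.41 CPM after saline. The part of these cells in the Gata3 result was not tested. The Gata3 gene overlaps the opposite-strand gene 4930412O13Rik, whose counts came to at most 9.88% of those of Gata3, and 9230102O04Rik on its own strand, at most 4.74%; whether counting used strand is not given in the sources used here.

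Klf4 (gene ID 16600; chromosome 4, 55527137 to 55536984, minus strand) encodes a Krüppel-like factor of terminal epithelial differentiation that is also expressed in blood vessels. It had 31.9, 32.7 and 25.1 CPM in normal-diet mice 1 day after cyclophosphamide, against 48.9, 46.9 and 54.3 CPM in normal-diet saline mice. Every saline mouse was above every injured mouse, and the log2 change was -0.74 (SE 0.19, adjusted p = 0.0138). The call was lost when replicate 3 of the normal diet on day 1 was left out (log2 change -0.64, adjusted p = 0.0832) and when replicate 3 of the normal-diet saline group was (-0.69, adjusted p = 0.0614). On the vitamin A diet it had 40.6, 24.1 and 34.5 CPM on day 1, against 38.8, 41.9 and 32.7 CPM after saline. These groups overlapped, and the log2 change was -0.23 (SE 0.19, adjusted p = 0.426). The difference between the diets in this response was 0.51 on the log2 scale, with a 95% interval from -0.04 to 1.06 and an adjusted p of 0.672.

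Tbx3 (gene ID 21386; chromosome 5, 119808600 to 119822789, plus strand), the T-box repressor, lay below 0 on both diets. It had 178.9, 190.5 and 118.3 CPM in vitamin A-diet mice on day 1, against 200.4, 228.8 and 269.1 CPM in vitamin A-diet saline mice. The normal-diet mice had 210.8, 150.5 and 145.9 CPM on day 1, against 244.6, 220.0 and 246.3 CPM after saline. Neither pair of groups overlapped, and the log2 changes of -0.54 (SE 0.20, adjusted p = 0.0710) and -0.49 (SE 0.20, adjusted p = 0.135) did not pass the threshold over all genes. The gene lay close to the threshold. With all mice on the vitamin A diet it passed in DESeq2 (log2 change -0.54, adjusted p = 0.0494) and in edgeR without the filter on low counts (-0.56, adjusted p = 0.0439), and on the normal diet it passed in edgeR with the libraries of the compared groups alone (-0.51, adjusted p = 0.0199). With libraries left out, on the vitamin A diet it passed without replicate 2 of the vitamin A diet on day 1 (log2 change -0.70, adjusted p = 0.0486) and without replicate 1 or replicate 2 of the vitamin A diet on day 3 (log2 change -0.55 and adjusted p = 0.0492 without the first, -0.55 and 0.0208 without the second). On the normal diet it passed without that same replicate 2 of day 3 (-0.49, adjusted p = 0.0486). Under all the other alternatives run, on either diet, Tbx3 did not pass.

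Pparg (gene ID 19016; chromosome 6, 115337840 to 115467365, plus strand) and Grhl3 (gene ID 230824; chromosome 4, 135269198 to 135300964, minus strand) are both needed in mice for full differentiation of the urothelial surface layers. Pparg averaged 97.9 ± 20.4 CPM in vitamin A-diet mice on day 1 and 126.1 ± 9.9 CPM in vitamin A-diet saline mice, a log2 change of -0.39 (SE 0.16, adjusted p = 0.09996). Normal-diet mice averaged 104.9 ± 11.03 CPM on day 1 and 110.4 ± 10.6 CPM after saline, a log2 change of -0.07 (SE 0.16, adjusted p = 0.821). The vitamin A result depended on replicate 2 of day 1, whose 121.3 CPM stood above the 83.8 and 88.6 CPM of the other mice. Without it the log2 change was -0.60 (adjusted p = 0.0167). Pparg is also the regulator of fat cells, and the mean log2 level of 12 adipocyte markers was 3.69 in that replicate and 5.52 and 6.33 in the other 2 mice. None of the 12 passed the test on day 1 on either diet, and the part of fat cells in the Pparg values was not tested. Grhl3 averaged 159.4 ± 19.2 CPM in vitamin A-diet mice on day 1 and 211.8 ± 22.0 CPM in vitamin A-diet saline mice, and the 3 mice of each group did not overlap. Its log2 change was -0.44 (SE 0.21, adjusted p = 0.159), and -0.44 (adjusted p = 0.0311) without replicate 2 of the vitamin A diet on day 3. Normal-diet mice averaged 193.6 ± 37.4 CPM on day 1 and 238.2 ± 8.3 CPM after saline, a log2 change of -0.30 (SE 0.21, adjusted p = 0.395).

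The basal regulator Trp63 (gene ID 22061; chromosome 16, 25502513 to 25710838, plus strand) had small log2 changes with intervals that span 0 on both diets. It averaged 235.8 ± 53.5 CPM in vitamin A-diet mice on day 1 and 215.5 ± 16.4 CPM in vitamin A-diet saline mice. Normal-diet mice averaged 226.4 ± 19.5 CPM on day 1 and 209.1 ± 2.6 CPM after saline. The log2 changes were 0.10 (95% interval -0.24 to 0.45) and 0.11 (95% interval -0.23 to 0.46).

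Foxa1 and Klf5 lay above 0 on both diets without passing the test. Foxa1 (gene ID 15375; chromosome 12, 57585750 to 57594815, minus strand), a pioneer factor, averaged 295.8 ± 69.0 CPM in vitamin A-diet mice on day 1 and 228.8 ± 23.3 CPM in vitamin A-diet saline mice, a log2 change of 0.35 (SE 0.20, adjusted p = 0.259). Normal-diet mice averaged 275.7 ± 47.6 CPM on day 1 and 231.8 ± 18.5 CPM after saline, a log2 change of 0.25 (SE 0.20, adjusted p = 0.479). It overlaps Ttc6 on the opposite strand, whose counts came to at most 16.9% of those of Foxa1. Klf5 (gene ID 12224; chromosome 14, 99536127 to 99550848, plus strand), a Krüppel-like factor needed for urothelial maturation in mice, averaged 71.9 ± 11.1 CPM in vitamin A-diet mice on day 1 and 58.3 ± 10.998 CPM in vitamin A-diet saline mice, a log2 change of 0.28 (SE 0.30, adjusted p = 0.559). Normal-diet mice averaged 82.0 ± 31.5 CPM on day 1 and 76.1 ± 7.1 CPM after saline, a log2 change of 0.11 (SE 0.29, adjusted p = 0.865). That sign turned to -0.26 (adjusted p = 0.659) without replicate 1 of the normal diet on day 1, which alone reached 118.4 CPM.

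Sox9 (gene ID 20682; chromosome 11, 112673036 to 112678583, plus strand), an HMG-box factor, was scarce in every bladder. It had 4.66, 6.64 and 5.47 CPM in vitamin A-diet mice on day 1, against 1.60, 3.46 and 4.29 CPM in vitamin A-diet saline mice. Normal-diet mice had 1.91, 1.69 and 4.99 CPM on day 1, against 1.66, 0.861 and 2.13 CPM after saline. The vitamin A groups did not overlap and the normal-diet groups did. The log2 changes of 0.83 (SE 0.43, adjusted p = 0.200) and 0.88 (SE 0.45, adjusted p = 0.228) did not pass the threshold. The normal-diet value came to 0.20 (adjusted p = 0.862) without replicate 3 of day 1.

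**Figure D2:**
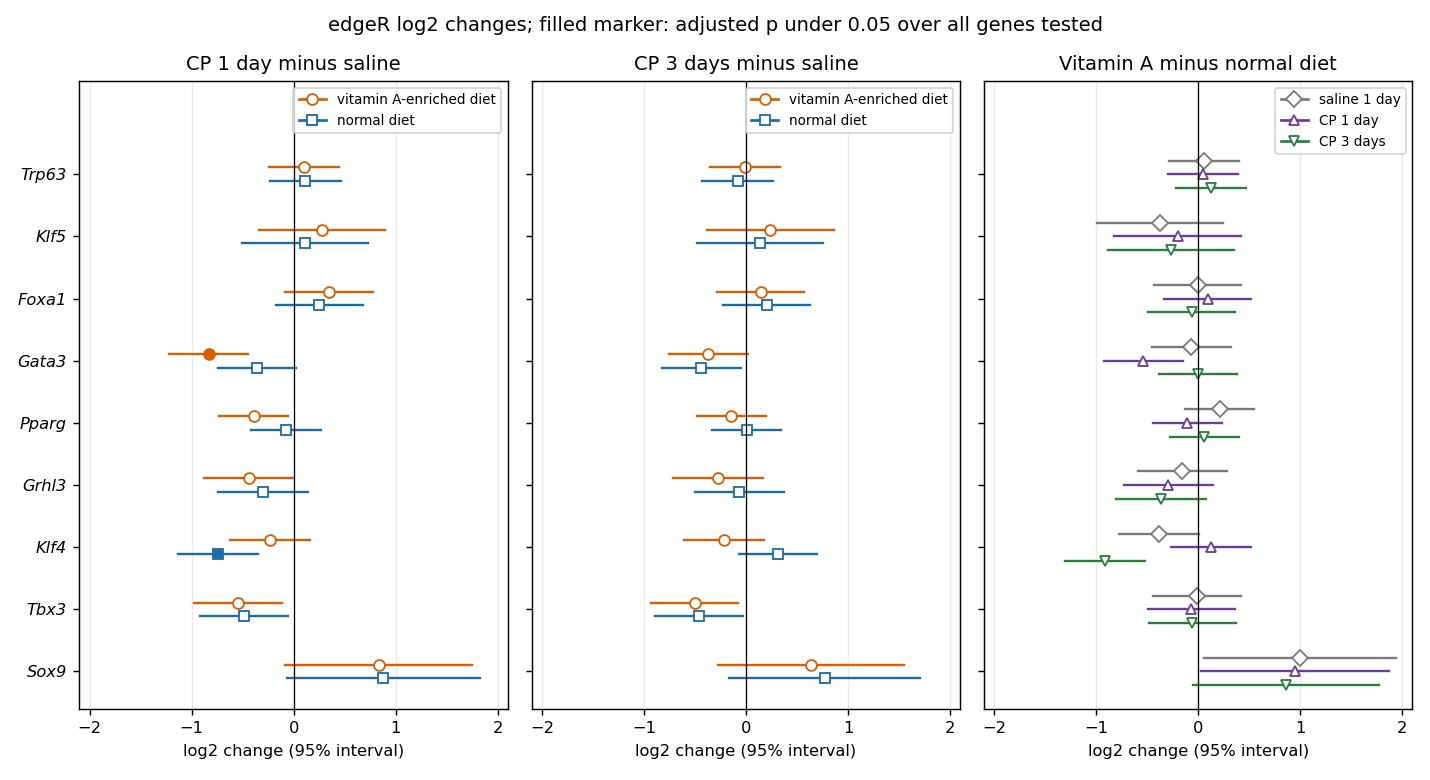
Log2 changes of the 9 genes with 95% intervals from the edgeR fit, for day 1 over saline, day 3 over saline, and the vitamin A-enriched over the normal diet; filled markers passed an adjusted p of 0.05 over all tested genes. Gata3 on the vitamin A diet (-0.83) and Klf4 on the normal diet (-0.74) on day 1 are the only filled markers.

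By the third day Klf4 was higher than on day 1 on the normal diet, and no other fate factor passed the test on either diet. Of the 9 genes 1, Klf4, rose between day 1 and day 3 on the normal diet, against 1.44% of all tested genes in either direction and 1.22% upward. On the vitamin A diet none was called by edgeR, against 4.24% of all tested genes; 1 gene, Gata3, had an unadjusted p under 0.05, against 19.3% of all tested genes, and DESeq2 called none. Klf4 had 60.9, 59.6 and 73.7 CPM in normal-diet mice on day 3, against 31.9, 32.7 and 25.1 CPM on day 1. Its log2 change was 1.06 (SE 0.19, adjusted p = 0.00553), and 0.95 (adjusted p = 0.0510) without replicate 3 of day 1. In vitamin A-diet mice Klf4 had 41.1, 32.9 and 24.8 CPM on day 3, against 40.6, 24.1 and 34.5 CPM on day 1. The log2 change there was 0.02, with a 95% interval from -0.37 to 0.41 and an adjusted p of 0.978. Gata3 on the vitamin A diet had 227.6, 207.3 and 219.3 CPM on day 3, each above the 169.6, 203.0 and 106.8 CPM of day 1. That log2 change of 0.46 (SE 0.18, adjusted p = 0.166) did not pass. Over all 9 genes the log2 changes ran from -0.20 to 0.46 on the vitamin A diet and from -0.19 to 1.06 on the normal diet. Without replicate 2 of the vitamin A diet on day 3 the vitamin A range was -0.16 to 0.46, with Gata3 at 0.46 (adjusted p = 0.196) and Klf4 at -0.03 (adjusted p = 0.952).

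Set against saline, no member was called on day 3 in the main edgeR fit. The share of all tested genes past the threshold was 5.98% on the vitamin A diet and 10% on the normal diet. At an unadjusted p under 0.05 there was 1 member on the vitamin A diet and 2 on the normal diet, against 18.9% and 23.1% of all tested genes, and DESeq2 called none. Tbx3 had the lowest log2 change on both diets, with 217.0, 106.8 and 176.3 CPM in vitamin A-diet mice and 167.1, 193.1 and 178.2 CPM in normal-diet mice on day 3. Its log2 change was -0.50 (SE 0.20, adjusted p = 0.177) on the vitamin A diet and -0.46 (SE 0.20, adjusted p = 0.183) on the normal diet. The vitamin A value was -0.30 (adjusted p = 0.397) without replicate 2 of that group, where Gata3 had the lowest, and -0.70 (adjusted p = 0.04998) without replicate 1. Gata3 had log2 changes of -0.37 (SE 0.18, adjusted p = 0.289) on the vitamin A diet and -0.44 (SE 0.18, adjusted p = 0.154) on the normal diet. In edgeR with the libraries of the compared groups alone, which called 3710 genes, both passed on the normal diet. There Gata3 was at -0.44 (adjusted p = 0.00435) and Tbx3 at -0.46 (adjusted p = 0.00354). Klf4 stood at -0.21 (SE 0.19, adjusted p = 0.584) on the vitamin A diet and 0.31 (SE 0.18, adjusted p = 0.330) on the normal diet. Without replicate 2 of the vitamin A diet, Gata3 was at -0.38 (adjusted p = 0.306) and Klf4 at -0.26 (adjusted p = 0.531). Klf5 moved from 0.24 (adjusted p = 0.725) to 0.58 (adjusted p = 0.135) when that library was left out. Over all 9 genes the vitamin A range was -0.50 to 0.64 with that library and -0.38 to 0.67 without it.

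The diet itself moved no member past the threshold at any of the 3 conditions. With saline, 0 of the 9 genes were called by edgeR, against 0.0104% of all tested genes, and 1 had an unadjusted p under 0.05, against 3.78%. On day 1 after cyclophosphamide 0 were called, against 0.466%, and 2 had an unadjusted p under 0.05, against 11.1%. On day 3 0 were called, against 0.00518%, and 1 had an unadjusted p under 0.05, against 3.76%. DESeq2 called none with saline and none on day 1, and 1, Klf4, on day 3. Averaged over the 3 conditions 0 were called, against 0.0776%, with 3 at an unadjusted p under 0.05 against 7.49%, and DESeq2 called 1, Sox9.

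The Klf4 levels of the diets did not overlap with saline or on day 3. On day 3 it had 41.1, 32.9 and 24.8 CPM in vitamin A-diet mice, against 60.9, 59.6 and 73.7 CPM in normal-diet mice. Every vitamin A-diet mouse was below every normal-diet mouse, yet 3 against 3 mice cannot give an exact permutation p under 0.1. The log2 difference was -0.91 (SE 0.19), with an unadjusted edgeR p of 0.000105 from the fit across all genes, and its adjusted p over all tested genes was 0.360 in edgeR and 0.0121 in DESeq2, and ranged from 0.0121 to 1 over all the alternatives run. Without replicate 2 of the vitamin A diet it was -0.96 (edgeR adjusted p = 0.749). With saline Klf4 had 38.8, 41.9 and 32.7 CPM on the vitamin A diet, against 48.9, 46.9 and 54.3 CPM on the normal diet, a log2 difference of -0.38 (SE 0.18) with an adjusted p of 1. On day 1 the diets overlapped, at a log2 difference of 0.13 (SE 0.19, adjusted p = 0.874). The change in the diet effect between day 1 and day 3 was -1.04 (SE 0.26), with an adjusted p of 0.309 in edgeR and 0.0450 in DESeq2, and a range from 0.0450 to 0.619 over all the alternatives run. Without replicate 2 of the vitamin A diet on day 3 it was -1.09 (adjusted p = 0.369). No gene of the whole table passed in edgeR for this interaction or for the interaction on day 1, so the share of all tested genes was 0% in each, and 8.96% and 7.79% had an unadjusted p under 0.05. Klf4 was the 1 member with an unadjusted p under 0.05 in the day 3 interaction and no member had one in the day 1 interaction, where DESeq2 also called none.

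Klf4 is expressed in vessels and responds to immediate early stimuli, so those lists stand beside it. The mean log2 level of 12 endothelial markers was 4.98 to 5.44 in vitamin A-diet mice on day 3 and 5.39 to 5.67 in normal-diet mice on day 3. Of these 12 markers 5 rose between saline and day 3 on the vitamin A diet and 9 on the normal diet, and none fell. Of all tested genes 5.98% and 10% passed there in either direction. The mean log2 level of 12 immediate early genes was 4.49 to 5.38 in vitamin A-diet mice on day 3 and 4.80 to 6.16 in normal-diet mice on day 3. The normal-diet mice were uneven, with Egr1 at 98.0 ± 116.6 CPM and Fos at 65.1 ± 71.6 CPM, each with an SD above its mean. Fibroblast markers fell on day 1 (9 of 10 on the vitamin A diet and 8 of 10 on the normal diet) and rose between day 1 and day 3 (9 of 10 and 6 of 10). Of all tested genes 9.05% and 4.49% fell on day 1. Between day 1 and day 3, 4.24% and 1.44% passed in either direction. The part of these cells and genes in the Klf4 result was not tested. On day 1 the mean log2 level of the immediate early genes was 5.89 to 6.26 in vitamin A-diet mice and 4.95 to 5.16 in normal-diet mice.

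**Figure D3:**
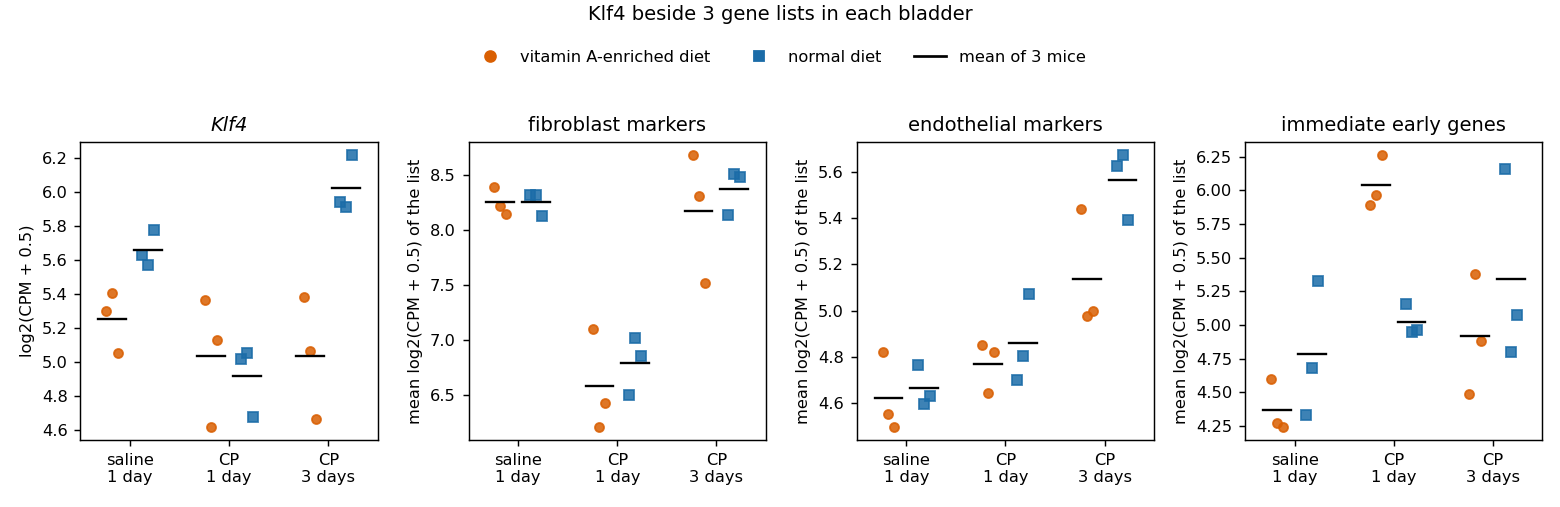
Log2 level of Klf4 beside the mean log2 level of fibroblast markers, endothelial markers and immediate early genes in each bladder, all as log2 of CPM plus 0.5 and each panel on its own axis; CP is cyclophosphamide and bars are means of 3 mice. On day 3 normal-diet mice lie above vitamin A-diet mice for Klf4 without overlap, and for endothelial markers with an overlap (vitamin A 4.98 to 5.44, normal 5.39 to 5.67).

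The mean level of Sox9 lay above that of the normal diet on the vitamin A diet at each condition, without passing the edgeR test. With saline it had 1.60, 3.46 and 4.29 CPM on the vitamin A diet, against 1.66, 0.861 and 2.13 CPM on the normal diet. On day 3 it had 5.49, 4.31 and 4.73 CPM on the vitamin A diet, against 2.23, 3.897 and 2.21 CPM on the normal diet. The diets overlapped with saline and on day 1 and did not on day 3. The log2 differences were 1.00 (SE 0.45, adjusted p = 1) with saline, 0.95 (SE 0.44, adjusted p = 0.431) on day 1 and 0.86 (SE 0.43, adjusted p = 0.994) on day 3. The day 1 difference was 1.63 (adjusted p = 0.175) without replicate 3 of the normal diet, and the day 3 difference was 0.90 (adjusted p = 1) without replicate 2 of the vitamin A diet. The average of the 3 differences was 0.93 (SE 0.25), with an adjusted p of 0.256 in edgeR and 0.0462 in DESeq2, and a range from 0.0462 to 0.500 over all the alternatives run. Sox9 also marks cartilage and glia. The 8 markers of those cells summed to 23.8 to 43.6 CPM on the vitamin A diet and 25.8 to 30.7 CPM on the normal diet on day 1, 19.2 to 34.6 and 24.2 to 27.2 CPM with saline, and 27.3 to 47.5 and 37.1 to 52.7 CPM on day 3. The cartilage gene Acan averaged at most 0.115 CPM in any group. Col2a1, another cartilage gene, averaged 1.26 CPM on the vitamin A diet and 0.780 CPM on the normal diet on day 1, 0.108 and 0.0711 CPM with saline, and 0.337 and 0.571 CPM on day 3. No cartilage or glial marker was called between diets, and the glial gene Sox10 averaged 4.63 CPM on the vitamin A diet and 2.02 CPM on the normal diet on day 1, 2.29 and 3.54 CPM with saline, and 2.68 and 3.43 CPM on day 3. The part of these cells in the Sox9 values was not tested.

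Gata3 on day 1 had a log2 difference between diets of -0.54 (SE 0.18, edgeR adjusted p = 0.222), and the 3 vitamin A-diet mice lay below the 3 normal-diet mice. Grhl3 lay below 0 in all 3 conditions, with an average log2 difference of -0.27 (SE 0.12, adjusted p = 0.623). With saline the diets did not overlap for Grhl3 either, at most 225.4 CPM on the vitamin A diet and at least 232.8 CPM on the normal diet. Its day 3 value of -0.36 became -0.11 without replicate 2 of the vitamin A diet. Klf5 averaged -0.28 (SE 0.17, adjusted p = 0.788), and its day 3 value of -0.27 turned to 0.08 without the same library. The day 3 values of Foxa1 and Tbx3, both -0.06, became 0.10 and 0.15 without it. Trp63 went from 0.13 to 0.27, Pparg from 0.06 to 0.02 and Gata3 from -3e-04 to -0.009. In the authors' deposited tables, which list genes with an unadjusted p under 0.05, Klf4, Klf5 and Sox9 appeared for saline, Gata3 and Sox9 for day 1, and Klf4 and Sox9 for day 3. With the sign turned to vitamin A over normal, the log2 ratios in the authors' deposited table for day 3 were -0.90 for Klf4 (adjusted p = 0.353) and 0.87 for Sox9 (adjusted p = 0.999). None of these entries passed an adjusted p of 0.05 in the authors' deposited tables.

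Beside the fate factors, basal and squamous genes rose in part on both diets, and umbrella cell genes fell in part. On day 1, 12 of 21 tested basal urothelium genes rose on the vitamin A diet and 8 of 21 on the normal diet, and none fell, against 10.2% and 7.26% of all tested genes upward. Their median log2 change was 1.22 and 0.76. The basal keratin genes Krt5 and Krt15 had log2 changes of 2.05 (SE 0.20) and 1.96 (SE 0.20) on the vitamin A diet, and of 0.98 (SE 0.19) and 1.86 (SE 0.20) on the normal diet. Of 16 tested squamous genes 9 rose on the vitamin A diet and 7 on the normal diet, with medians of 1.31 and 1.31. Krt13, a keratin of stratified squamous epithelium, averaged 32.5 ± 17.2 CPM in vitamin A-diet mice on day 1 and 0.584 ± 0.46 CPM in vitamin A-diet saline mice. Normal-diet mice averaged 6.74 ± 3.3 CPM on day 1 and 0.514 ± 0.19 CPM after saline.

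Of 13 umbrella cell genes 8 fell and 2 rose on the vitamin A diet on day 1, and 4 fell and 2 rose on the normal diet. Of all tested genes 10.2% rose and 9.05% fell on the vitamin A diet, and 7.26% rose and 4.49% fell on the normal diet. The counts of each list here stand beside these shares, and no list was tested as a set. The uroplakin gene Upk2 had log2 changes of -1.42 (SE 0.19) and -0.86 (SE 0.19), and the tight junction gene Cldn8 of -2.17 (SE 0.24) and -1.39 (SE 0.24). The genes of this list that rose were Gsdmc3 and the keratin gene Krt8 on the vitamin A diet and Gsdmc2 and Gsdmc3, of the gasdermin family, on the normal diet. Among 28 other epithelial transcription factors 6 rose and 4 fell on the vitamin A diet, and 3 rose and none fell on the normal diet, with median log2 changes of -0.05 and 0.04. The AP-1 gene Fosl1 averaged 17.5 ± 6.8 CPM in vitamin A-diet mice on day 1 and 0.352 ± 0.32 CPM after saline, and 8.06 ± 1.6 CPM in normal-diet mice on day 1 and 0.260 ± 0.097 CPM after saline. Elf5, an ETS factor, fell on day 1 on the vitamin A diet (log2 change -1.38, SE 0.25). It averaged 60.4 ± 10.1 CPM in vitamin A-diet saline mice and 16.6 ± 2.7 CPM in normal-diet saline mice, a log2 difference of 1.88 (SE 0.25, adjusted p = 0.00602). Of 14 target genes of peroxisome proliferator-activated receptors 2 rose on the vitamin A diet and 4 on the normal diet on day 1, Angptl4 and Ucp2 among them on each, and none fell. In the Notch list of 12 genes 1 rose and 3 fell on the vitamin A diet and none passed on the normal diet.

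**Figure D4:**
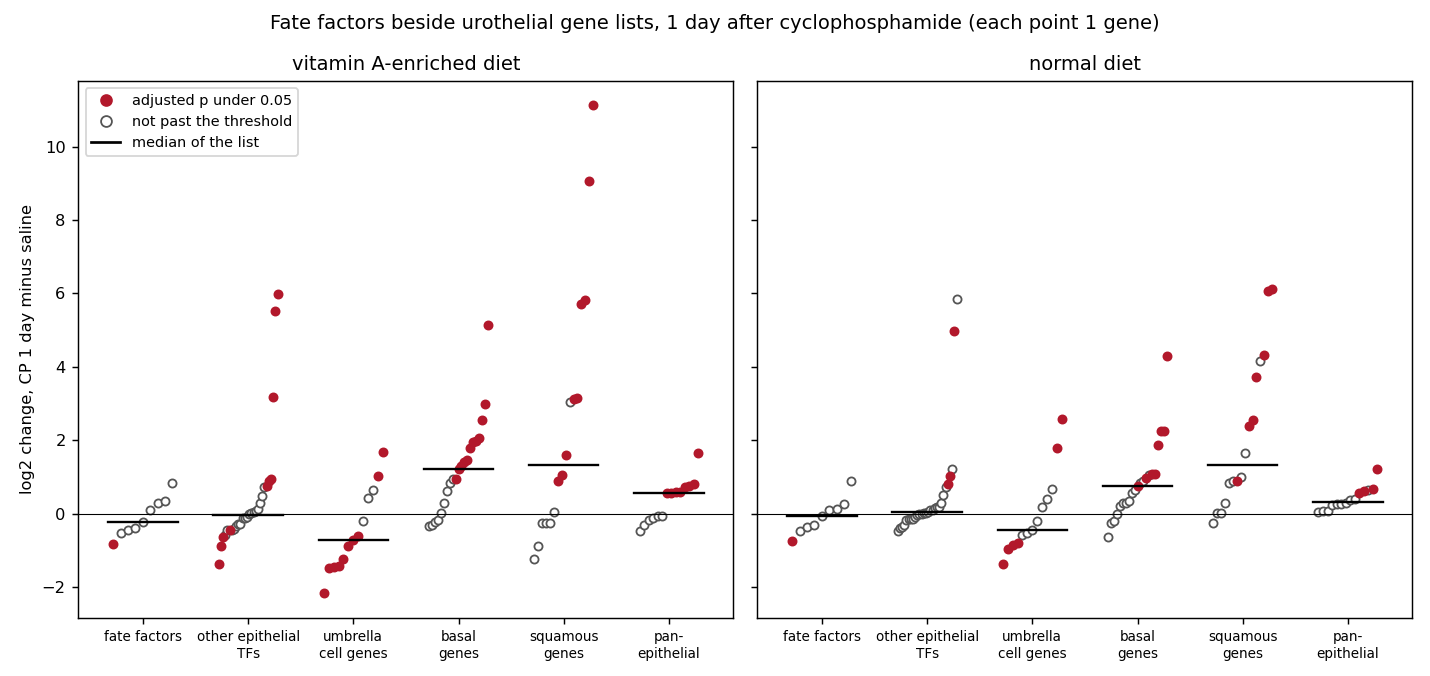
Log2 change on day 1 after cyclophosphamide over saline for each gene of the fate factor set and of 5 other lists, on the vitamin A-enriched diet and on the normal diet; red points passed an adjusted p of 0.05, bars are list medians, and the highest points are genes close to 0 counts after saline, whose fitted change is no measure of size. The fate factors stay between -0.83 and 0.88, with basal and squamous genes mostly above 0 and umbrella cell genes mostly below.

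Because these are whole bladders, each factor was also set against 14 pan-epithelial genes in the same library, as a log2 difference with no test. The pan-epithelial genes themselves rose in part on day 1, 8 of 14 on the vitamin A diet and 4 of 14 on the normal diet. Of all tested genes 10.2% and 7.26% rose. The day 1 minus saline difference for Gata3 against this list was -1.21 on the vitamin A diet and -0.78 on the normal diet. Tbx3 was at -0.90 on each diet, Grhl3 at -0.77 and -0.71, and Pparg at -0.74 and -0.47, and for these 4 genes every day 1 mouse was below every saline mouse on both diets. Klf4 was at -0.58 on the vitamin A diet, where the mice overlapped, and at -1.14 on the normal diet, where they did not. Trp63 was at -0.26 and -0.29 without overlap. On the vitamin A diet the Trp63 groups almost touched, with 0.1143 in the highest day 1 mouse and 0.1152 in the lowest saline mouse. Foxa1 stood at -0.01 and -0.16, Klf5 at -0.06 and -0.35 and Sox9 at 0.46 and 0.24, each with overlap on both diets. In all, 5 of the 9 genes on the vitamin A diet and 6 of the 9 on the normal diet were lower in every day 1 mouse on this measure, against 37.4% and 47.6% of all tested genes.

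**Figure D5:**
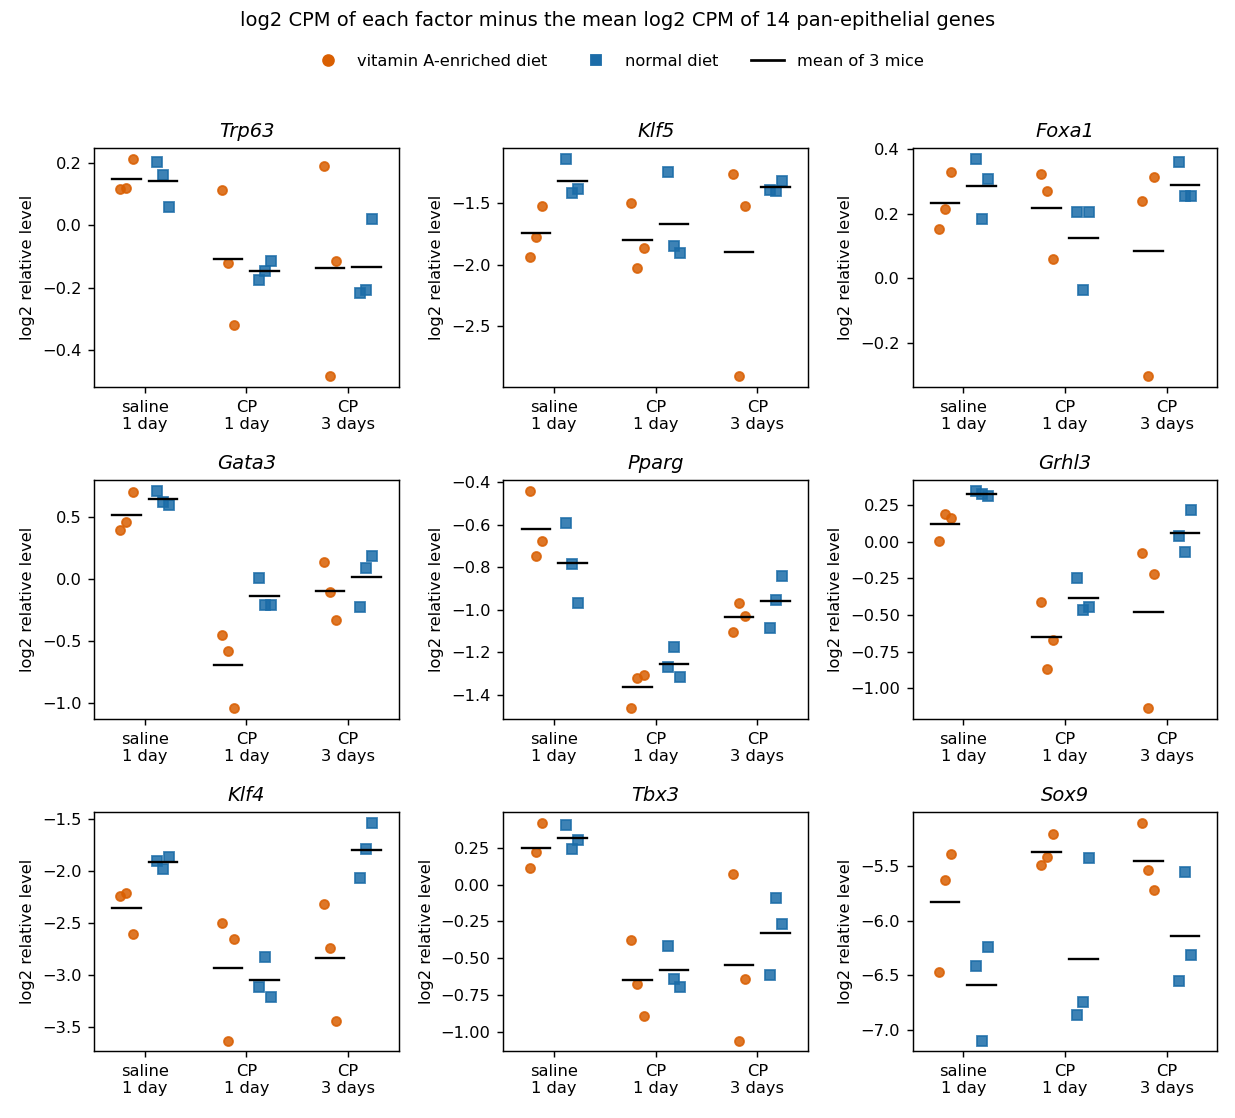
Log2 level of each of the 9 genes minus the mean log2 level of 14 pan-epithelial genes in the same bladder, after saline, 1 day after cyclophosphamide (CP) and 3 days after it; bars are means of 3 mice and each panel has its own axis. Gata3, Tbx3, Grhl3 and Pparg lie lower on day 1 than after saline on both diets without overlap, as 37.4% of all tested genes did on the vitamin A diet and 47.6% on the normal diet, and the lowest vitamin A-diet points for Foxa1, Klf5, Grhl3 and Tbx3 on day 3 are replicate 2.

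Profiles over the 6 group means, each centred on its own mean log2 CPM, were compared by the root mean square difference among 14328 genes whose log2 CPM averaged 1 or more. The genes closest to Klf4 were Dnm3os (0.12), Cdh13 (0.12) and Dchs1 (0.13), where the spread of Klf4 itself was 0.39. Those closest to Gata3 were Bmp3 (0.04), Nfatc2 (0.04) and Enpp5 (0.05), with a spread of 0.30. For Sox9 they were Hk2 (0.17), Mnd1 (0.18) and Cebpb (0.20), with a spread of 0.53. For Tbx3 they were Cmtm4, Gabbr1 and Bbs4, for Pparg Zfp787, Ccny and Relch, and for Foxa1 Pank2, Morc3 and Akt1. For Grhl3 they were 4930481B07Rik, Zfp267 and Uvssa, for Klf5 Jmjd4, Taok3 and LOC118567379, and for Trp63 Zfp511, Tsnax and Spryd7. Within the set the member closest to Gata3 was Tbx3 (0.17), that closest to Klf4 was Grhl3 (0.25), and Foxa1 and Trp63 were the closest pair (0.11). Likeness over 6 means that share libraries and a common scale is a description.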

How the data were processed

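Whole-bladder RNA was measured in 18 libraries, grouped by their titles, which number biological replicates. The submitters' processing notes name GRCm39, with HISAT2 2.0.5, featureCounts 1.5.0-p3, and also DESeq2 1.20.0, but state neither the role of each nor strandedness. The authors deposited whole-number counts per gene and FPKM values; FPKM served only to order levels. In the authors' deposited diet tables the log2 value is normal over vitamin A (sign turned here), beside a p-value and a normalised signal not used here; by their values, only genes whose unadjusted p is under 0.05 appear.

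Features without a name (14417 of 60750, holding 0.474% to 0.8097% of counts) were left out of library sizes and tests. The main test, in R 4.3.3, was edgeR 4.0.16 with filterByExpr, TMM factors and the robust quasi-likelihood test. It used 1 mean per group over 18 libraries (12 residual degrees of freedom, 12 contrasts). Simulated data with the same spread set for every gene were run first, for day 1 over saline on the normal diet. There 45% of 2-fold and 100% of 4-fold changes were called, with 5 false calls, so changes of 2-fold or less can be missed. Adjusted p-values are Benjamini-Hochberg values over 19323 tested genes, 2-sided, threshold 0.05; intervals are 95%. The standard error is the log2 change over the square root of F. CPM carries no TMM scaling, and list levels are means of log2(CPM + 0.5). The 9 genes and 18 further lists (242 genes, 1 not found) were chosen with earlier results of these data known, so no list is independent evidence. All 9 genes are reported; from other lists the named genes were those with the smallest adjusted p, at most 4 per contrast, and the first 2 of each marker list. Wfdc2, Gsdmc2, Krt8, Sox10, Rora, Egr1 and Fos were named after their values were seen. Promoter windows are from GRCm38.p6, not the build of the counts. Alternatives were RLE factors, no filter, a replicate block, unnamed features kept, the compared groups' libraries alone, DESeq2 1.42.0, and each library left out.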

Additional observations from a re-analysis of the deposited data

How the results depend on the processing

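The Gata3 call on day 1 on the vitamin A diet held under every alternative run, with log2 changes from -1.07 to -0.61. The Klf4 calls on the normal diet held under the 6 alternatives that keep all mice or their groups, and were lost without the libraries named beside them. The number of members called, by default 1 on day 1 on each diet, was 2 on the normal diet with the compared groups' libraries alone and ranged from 0 to 2 when a library was left out. On the vitamin A diet it was 2 without the filter, 2 with the compared groups alone, 2 in DESeq2, and 1 to 3 when a library was left out. Between day 1 and day 3 on the normal diet it ranged from 0 to 1. For day 3 over saline it was 2 on the normal diet with the compared groups alone (Gata3 and Tbx3), and 0 to 1 on the vitamin A diet when a library was left out. DESeq2 called 1 member, against 0 in edgeR, for the diet on day 3, the average diet effect and the interaction of diet with time. Sign turned only in values that had not passed the main test, the largest of them 0.271 in size. Klf4 between day 1 and day 3 on the vitamin A diet became -0.0022 with RLE factors, -2.9e-05 with the compared groups alone and -0.0021 in DESeq2, and ranged from -0.15 to 0.19 when a library was left out. Other leave-one-out ranges that crossed 0 included -0.0257 to 0.30 for Klf4 by diet on day 1 and -0.56 to 0.0757 for Klf5 by diet on day 3. On day 1 over saline they included -0.26 to 0.27 for Klf5 and -0.16 to 0.0064 for Pparg on the normal diet. The range for Trp63 on the vitamin A diet was -0.063 to 0.27. Over all members and contrasts 126 of 2583 refits changed sign, none of a main log2 change above 0.271 in size. Without Krt7 and Krt19 in the pan-epithelial list, the day 1 values became -0.63 for Grhl3 and -0.20 for Trp63 on the normal diet and -0.60 for Pparg and 0.13 for Foxa1 on the vitamin A diet. Counts over all genes were less stable. They were 2 with saline (7 without the filter, 35 with the compared groups alone, 17 in DESeq2), 90 on day 1 (2 with the compared groups alone, 499 in DESeq2, 0 to 305 by library left out) and 1 on day 3 (0 without the filter and with the block, 11 in DESeq2) for diet. The average diet effect gave 15 (41 without the filter, 124 in DESeq2), and the interactions gave 0 (up to 120 on day 1 and 87 over time in DESeq2, 25 and 9 without the filter, 19 on day 1 with the compared groups alone). On the normal diet, day 1 gave 2271 (4463 with the compared groups alone), day 3 over day 1 gave 278 (708 and, in DESeq2, 664) and day 3 over saline 1940 (3710). On the vitamin A diet, day 3 over day 1 gave 819 (17 and 1726) and day 3 over saline 1156 (499 and 1766). The cause of these differences was not tested. The replicate numbers did not pair the mice: of 27 same-numbered pairs 4 had a correlation of deviations over 0.1 (-0.1824 to 0.2604). With the replicate block Klf4 on the normal diet on day 1 was -0.75 (adjusted p = 0.0165), Gata3 on the vitamin A diet -0.84 (adjusted p = 0.00595), and no member's call changed. The average diet effect uses all groups, so it has no fit with the compared groups alone. Depth limits Sox9 most, at 18 to 151 counts per library.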
